A study of Mus musculus with 3 samples.

Results

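Interferon-stimulated genes are the transcripts that cells switch on after interferon reaches its receptor. The members described here are 40 such genes chosen by name, with earlier results of these data known. Of the 40, 38 had a row among the 32285 genes of the count table. Mx1 and Mx2 had none and were not analysed here. The aortic leukocytes (CD45+ cells) came from 10 mice on a C57BL/6 background and were studied by CITE-seq, in which messenger RNA and surface antibodies of the same single cells are counted together. Of these mice, 5 were Jak2WT controls and 5 were Jak2V617F Myel mice, in which a Flex allele of the activating V617F kinase mutation is turned on by LysM-Cre. In the mutant group, the aorta of 3 mice was dilated without aneurysm (mice 6, 8 and 10) and that of 2 mice held a macroscopic aneurysm (mice 7 and 9), and none of the mice received a treatment. Mice of both sexes were used in the study, and the age and sex of each of these mice were not given in the sources used here.

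LysM-Cre follows the lysozyme gene Lyz2, which myeloid cells use and lymphocytes use little. Counts at the end of a transcript do not tell the mutated Jak2 allele from the normal one. In macrophages, Jak2 stood at 19.9, 27.3, 34.4, 35.5 and 20.5 CPM (counts per 1000000 UMIs, or unique transcript molecules, of a mouse's cells of one type) in Jak2WT mice 1 to 5 and at 23.8, 25.5, 18.6, 35.9 and 24.4 CPM in Jak2V617F Myel mice 6 to 10. These ranges overlapped. All 10 samples, each carrying its own hashtag antibody, were pooled and sorted in 1 run, and leukocytes of the blood, stained by an antibody injected before death, were excluded at sorting. Before pooling, the antibody against CD45.2 carried another dye in Jak2WT than in Jak2V617F Myel samples, and its part in any difference between genotypes cannot be told apart from the genotype. After removal of doublets, cells without a hashtag and cells rich in mitochondrial transcripts, 4871 cells remained, from 112 in mouse 4 to 811 in mouse 7, with total UMI counts of 1038443 in mouse 4 to 9643994 in mouse 9. The cells fell into 15 named classes, of which macrophages were the largest with 1714 cells (44 in mouse 4 to 374 in mouse 9). All 7 macrophage markers, C1qa to Adgre1, were present in the macrophages of the pool, and their summed level lay between 15317 and 19996 CPM in every mouse.

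Type I interferons (the interferon alpha genes and Ifnb1) signal through the receptor chains Ifnar1 and Ifnar2 and the kinases Jak1 and Tyk2. Stat2 and Irf9 belong to the complex that then binds the interferon-stimulated response element (ISRE). Type II interferon (Ifng) signals through Ifngr1 and Ifngr2 with the kinases Jak1 and Jak2, and many of its targets carry a gamma-activated site (GAS). The products act in several ways. IFIT and OAS proteins recognise foreign RNA, GTPases of the Irgm and guanylate-binding families attack intracellular pathogens, and Isg15 is a ubiquitin-like modifier that Usp18 removes from its targets.

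The start regions of the members carried these elements far more often than those of other genes. RefSeq promoter windows (GRCm38.p6, 250 bases before to 50 bases after the start site) matched 32 of the 40 members by symbol. The ISRE letters (GAAA, any 2 bases and GAAA, on either strand) were present in 19 of the 32 genes, or 59.4%, against 3.99% of 27025 genes with a window, and the GAS letters (TTC, any 3 bases and GAA, which read the same on both strands) in 8 genes, or 25%, against 9.55%. Both were present in 4 members, and such matches may share letters. The windows of Oasl1, Irf7 and Irf9 held neither set of letters. The stretches below were chosen because these genes carry the results that follow. Ifit1, Ifit3 and Rsad2 are among the members most concentrated in few macrophages, and Isg15 has its highest pooled level in neutrophils. Ifit2, the most concentrated member, is not printed. Its windows held 0 ISRE matches and 1 GAS match, which begins 241 bases before the start site. Ifi207 is the most abundant member in macrophages. Irgm1 was called lower in aneurysm than in Jak2WT over all macrophages, a call that rested on single mice. Gbp2 and Gbp7 stand for the guanylate-binding GTPases, and Irf1 carries a GAS match only. Each stretch runs 5′ to 3′ on the strand of its gene, with ISRE letters in capitals. The first match begins 104 bases before the start site in Ifit1, 156 in Ifit3, 78 in Isg15, 120 in Rsad2, 41 in Ifi207, 30 in Irgm1 and 59 in Gbp2, and in Isg15 3 matches overlap.
Ifit1 (chr19:34640745-34640853, strand +): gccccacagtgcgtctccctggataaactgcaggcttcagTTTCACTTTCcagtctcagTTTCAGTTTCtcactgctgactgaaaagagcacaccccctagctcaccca
Ifit3 (chr19:34583333-34583456, strand +): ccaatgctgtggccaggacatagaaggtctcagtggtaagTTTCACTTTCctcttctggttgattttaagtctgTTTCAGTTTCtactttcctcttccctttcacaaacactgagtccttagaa
Isg15 (chr4:156200835-156200936, strand -): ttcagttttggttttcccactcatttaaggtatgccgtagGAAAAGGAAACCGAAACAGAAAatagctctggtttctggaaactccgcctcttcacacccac
Rsad2 (chr12:26456523-26456612, strand -): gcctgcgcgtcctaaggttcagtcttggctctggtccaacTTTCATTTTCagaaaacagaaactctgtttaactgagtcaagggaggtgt
Ifi207 (chr1:173741810-173741890, strand -): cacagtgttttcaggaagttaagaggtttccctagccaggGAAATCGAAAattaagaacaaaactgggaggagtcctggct
Irgm1 (chr11:48871421-48871490, strand -): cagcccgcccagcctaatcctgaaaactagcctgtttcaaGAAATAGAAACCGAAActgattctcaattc
Gbp2 (chr3:142620564-142620653, strand +): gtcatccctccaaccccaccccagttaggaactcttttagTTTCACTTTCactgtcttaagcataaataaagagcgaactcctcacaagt
In the next pair the capitals mark GAS letters, which begin 106 bases before the start site in Gbp7 and 90 in Irf1.
Gbp7 (chr3:142530190-142530297, strand +): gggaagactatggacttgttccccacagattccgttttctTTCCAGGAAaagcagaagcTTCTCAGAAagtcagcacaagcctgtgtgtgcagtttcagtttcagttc
Irf1 (chr11:53769884-53769972, strand +): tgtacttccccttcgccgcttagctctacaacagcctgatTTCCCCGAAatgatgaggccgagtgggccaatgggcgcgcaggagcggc

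The stretch printed for Ifit3 comes from a gene whose neighbour Ifit3b is a near copy, so counts of this pair, as of other close relatives such as the Oas1, Ifi200, Trim30 and Gbp genes, are uncertain where a read cannot be given to one copy. A match of letters is a description and shows no binding in these cells.

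Across the leukocytes, the summed level of the members was higher in macrophages than in T cells, B cells and ILC2. The summed level of the 38 members in macrophages ranged from 1841 to 3964 CPM over the 10 mice, with a median of 2188. T cells ranged from 596 to 1123 CPM, B cells from 324 to 638 CPM in the 9 mice with at least 10 such cells, and ILC2 (group 2 innate lymphoid cells) from 284 to 636 CPM. The macrophage range therefore did not overlap those of T cells, B cells or ILC2. This holds for the sum, of which Ifi207 alone made up 34.2% in macrophages. Single members could go the other way, such as Ifi47 (a pooled 69.2 CPM in T cells and 29.1 CPM in macrophages). Gbp7 stood at a pooled 113 CPM in NK cells and 63.3 CPM in macrophages. Of the 38 members, 8 were highest in macrophages. Conventional dendritic cells of type 2 (cDC2) lay between, at 411 to 2569.7 CPM, and overlapped both. Neutrophils of mice 3, 7 and 9, the mice with at least 10 of these cells, stood at 1765, 1979 and 831 CPM. With every cell thinned to 2000 UMIs, which removes the difference in depth, macrophages held a mean of 4.62 member UMIs per cell, neutrophils 4.92, cDC2 2.84, T cells 1.92 and B cells 1.09. The mean of neutrophils came from few cells, since their median was 1.5 member UMIs and their 90th percentile 14.5, beside a median of 4 in macrophages. Lyz2 itself, the gene behind the Cre driver, stood at a pooled 6127 CPM in macrophages, 2305 CPM in neutrophils and 20834 CPM in Saa3+ myeloid cells. It was also counted in cDC2 (a pooled 3675 CPM, and 2163 to 8195 CPM over the 9 mice with at least 10 of these cells) and in proliferating cells (3096 CPM), against 147 CPM in T cells and 180.3 CPM in B cells.

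**Figure D1:**
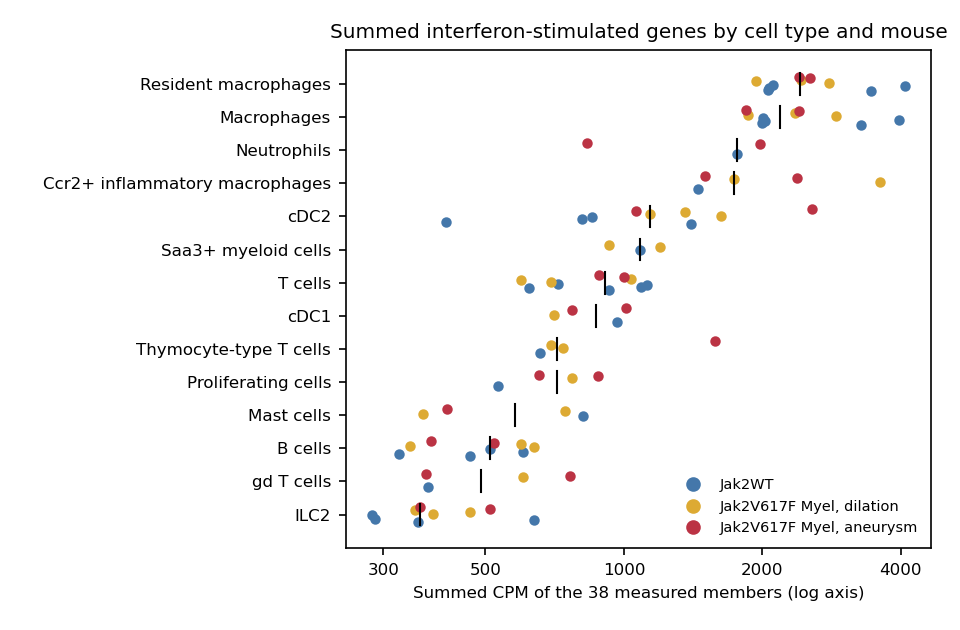
Summed CPM of the 38 measured members (horizontal log axis) for each cell type with at least 10 cells in 3 or more mice. Points are mice, coloured by group, and black lines are medians over the mice, and the macrophage points (1841 to 3964 CPM) lie to the right of all T cell points (596 to 1123 CPM).

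The cell types did not share 1 pattern. Among 13 classes with at least 50 cells, 13 of the 38 members had their highest pooled level in neutrophils and 8 in macrophages (Oas1a, Oas2, Ifi204, Ifi207, Phf11d, Iigp1, Xaf1 and Bst2), and the other 17 were spread over 7 classes. The pooled neutrophil levels include mice with fewer than 10 of these cells and lean on a few of them. Mouse 1 gave 232 member UMIs from 4 neutrophils, and mouse 9 gave 179 from 39. Isg15 stood at 636 CPM, 652 CPM and 232 CPM in the neutrophils of mice 3, 7 and 9, and at 646 CPM over all 109 neutrophils, against 66.4 CPM over all macrophages. Rsad2 (viperin, an enzyme that makes a chain-terminating nucleotide) stood at 141 CPM, 84.5 CPM and 0 CPM in the same 3 mice. Both genes were thus lowest in the neutrophils of mouse 9, and 91 Rsad2 UMIs in all were counted in this class. Ifi205, a member of the PYHIN family of DNA-sensing proteins, was highest in type 1 conventional dendritic cells, with 305 CPM, 242 CPM, 304 CPM and 229.6 CPM in mice 2, 6, 7 and 9, against 0.716 to 7.45 CPM in macrophages and a pooled 11.9 CPM in proliferating cells, the next class. These levels are UMIs of transcript ends, which are not divided by transcript length, and with few mice per class they are a description.

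Within macrophages, the levels of single members spanned a wide range. The PYHIN gene Ifi207 alone made up 34.2% of the member UMIs. It stood at 686, 821, 793, 587 and 675 CPM in Jak2WT mice 1 to 5, at 1001, 685 and 834 CPM in dilation mice 6, 8 and 10 and at 924 and 621 CPM in aneurysm mice 7 and 9, so the groups overlapped. Next came Bst2 (tetherin, which holds budding virus at the cell surface) with a mean of 268 CPM over the 10 mice, the transcription factor Irf1 with 205 CPM, the PYHIN gene Ifi204 with 173 CPM and the tripartite motif gene Trim30a with 105 CPM. The lowest were Ifi44 with a mean of 2.06 CPM, Ifi205 with 3.45 CPM, Ifit3b with 4.29 CPM, the RNA-activated enzyme Oas3 with 5.03 CPM and Oasl1 with 7.68 CPM.

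A pair of Jak2WT mice had the highest member levels. Summed over all members, macrophages of Jak2WT mice 1 to 5 stood at 3280.0, 1993, 2025, 3964 and 2010.5 CPM. Those of dilation mice 6, 8 and 10 stood at 2896, 1860.1 and 2349.7 CPM, and those of aneurysm mice 7 and 9 at 2399.8 and 1841 CPM. Mice 1 and 4 were the highest, and the other 3 controls lay within the range of the mutants. The means were 2654 ± 916 CPM (SD, n = 5) in Jak2WT and 2269 ± 438 CPM (SD, n = 5) in Jak2V617F Myel, a ratio of 0.855, which fell within the spread of the mice. Without Ifi207, the ratio was 0.750. Leaving out mouse 4 brought the ratio of all members to 0.975, and leaving out mouse 1 brought it to 0.908.

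Mice 1 and 4 held the top 2 places for 21 of the 32 members that passed the expression filter in macrophages, while the same was true of 6.26% of the 8136 genes tested. Mouse 4 was the highest mouse for 21 members, mouse 1 for 6, mouse 6 for 4 and mouse 9 for 1 (Oasl1). Among the resident macrophages alone, mice 1 and 4 led for 18 of 31 members, against 6.73% of 7923 genes. Mouse 4 had the fewest macrophages of all mice (44), while its median UMI count per macrophage (10494) and that of mouse 1 (9684) lay within the range of the other mice (7863 to 13454). The share of mitochondrial UMIs in their macrophages (medians of 2.23% in mouse 1 and 1.99% in mouse 4) lay within that of the other mice as well (1.95% to 2.28%).

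**Figure D2:**
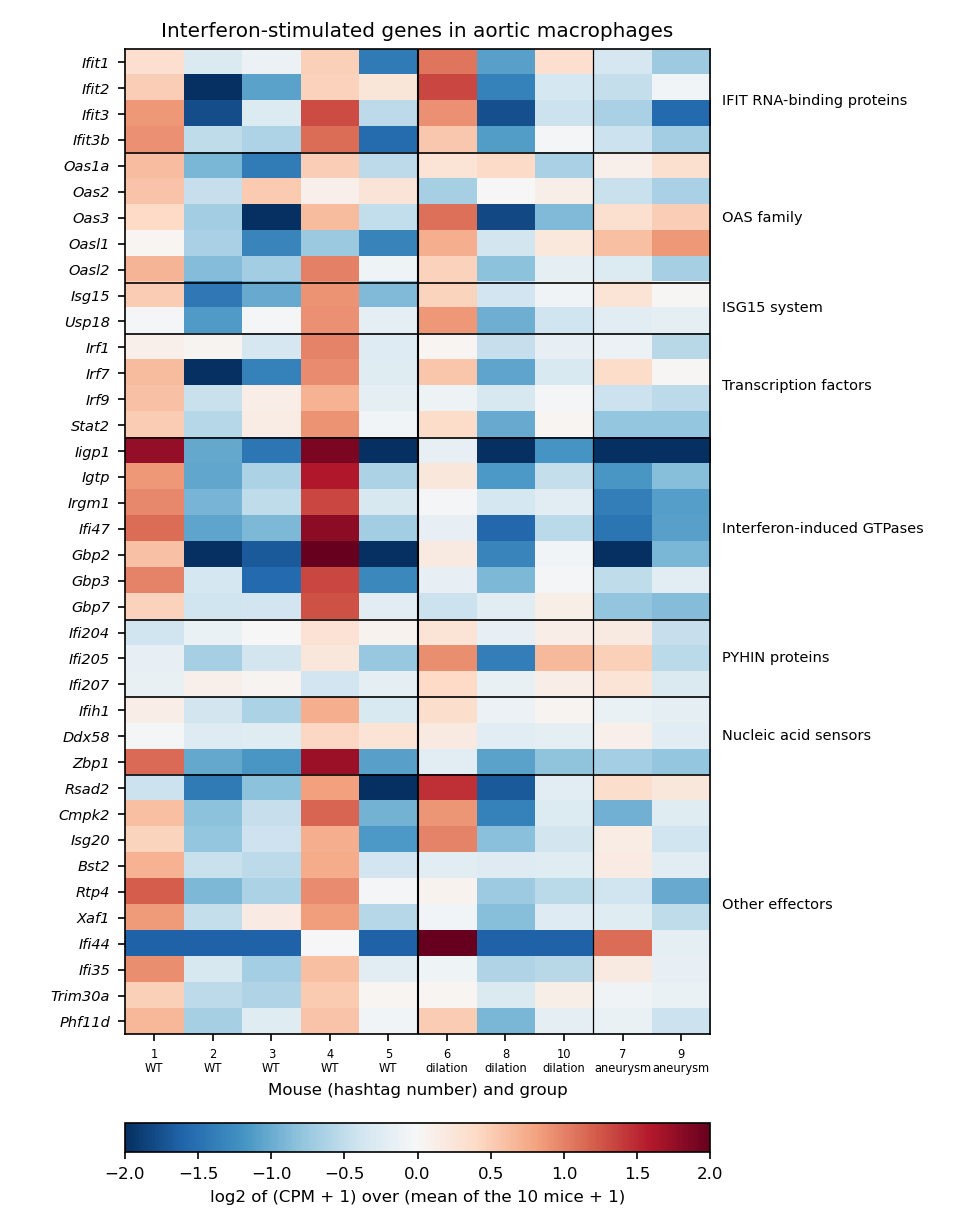
Level of each of the 38 measured members (rows, grouped by role) in the macrophages of each mouse (columns, by group), as log2 of CPM + 1 over the mean of the 10 mice + 1, red above and blue below that mean. Jak2WT mice 1 and 4 are red in most rows, dilation mouse 6 is red for Rsad2 and Ifi44, and the aneurysm mice 7 and 9 are blue for the interferon-induced GTPases.

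The interferon-induced GTPases had a wide range over mice. The 7 members of this group (Iigp1, Igtp, Irgm1, Ifi47, Gbp2, Gbp3 and Gbp7) together stood at 659, 171, 169.6, 991 and 173 CPM in Jak2WT mice 1 to 5. They stood at 285, 165 and 254 CPM in dilation mice 6, 8 and 10 and at 118 and 141 CPM in aneurysm mice 7 and 9. Mice 1 and 4 lay above every other mouse, both aneurysm mice lay lowest, and the other 3 controls fell among the dilation mice. In resident macrophages the group stood at 715, 183, 174, 1052 and 192 CPM in Jak2WT mice 1 to 5 and at 209.7, 169.7, 173, 205 and 272 CPM in mice 6 to 10. There, aneurysm mouse 9 lay above controls 2, 3 and 5 and above dilation mouse 8, while mouse 7 was again the lowest. In all macrophages, the 3 PYHIN genes had a narrow range relative to their level, with 749 to 1219 CPM over all mice. The 4 IFIT genes spanned 17.2 to 109 CPM and were highest in mouse 6 (109) and mouse 4 (105), 1 mouse of each genotype.

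The first question of the design was whether the mutation changed these genes in macrophages. None of the 32 tested members passed an adjusted p of 0.05 (edgeR, adjusted over all genes), and neither did any of the 8136 genes, a background of 0%. DESeq2 also called 0 members. At an unadjusted p under 0.05, 1 member was higher and 4 were lower in Jak2V617F Myel, against 5.68% of all genes higher and 6.28% lower. Of the 32 log2 fold changes, 11 were above 0 and 21 below, with a median of -0.34, beside a median of -0.0042 over all genes. Without mouse 1 the members' median was -0.085 and without mouse 4 it was -0.095. Leaving out any other mouse kept it between -0.46 and -0.25. No member separated the genotypes without overlap of the mice, in a background of 0.578% of genes with all mutants above and 1.34% with all below. The other 6 measured members (Ifit3b, Isg20, Oas3, Ifi44, Ifi205 and Cmpk2) were too low to be tested.

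Oasl1, an OAS-like protein that restrains translation of Irf7, had the smallest p of the 32. It stood at 7.95, 4.54, 2.46, 4.18 and 2.45 CPM in Jak2WT mice 1 to 5 and at 13.4, 12.2, 5.73, 14.8 and 9.02 CPM in Jak2V617F Myel mice 6 to 10. The lowest mutant, mouse 8, lay below the highest control, mouse 1, and the other 4 mutants lay above every control (log2 fold change 1.44, standard error 0.370, edgeR adjusted p = 0.209). In a fit that treated dilation and aneurysm as separate groups with 1 shared spread, the same contrast gave 1.41 with an edgeR adjusted p of 0.039. Iigp1, a GTPase that breaks the vacuoles of intracellular parasites, had the largest change. It stood at 225, 31.8, 23.3, 243 and 15.5 CPM in the 5 Jak2WT mice and at 58.1, 7.68, 14.3, 7.51 and 28.2 CPM in mice 6 to 10. Mice 1 and 4 lay far above the rest, while controls 2, 3 and 5 overlapped the mutants (log2 fold change -2.27, standard error 0.790, edgeR adjusted p = 0.311). Ifi47, another of these GTPases, stood at 97.4, 20.9, 23.3, 155 and 27.0 CPM in Jak2WT mice and at 39.5, 15.4, 14.3, 20.3 and 30.1 CPM in mutants, with the same pair of high controls (log2 fold change -1.33, standard error 0.517, edgeR adjusted p = 0.344).

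None of the regulators of the response passed the test between genotypes. Irf9, the DNA-binding part of the type I complex, stood at 81.5, 39.1, 59.0, 87.8 and 47.5 CPM in Jak2WT mice 1 to 5 and at 49.9, 39.8, 43.0, 37.2 and 53.0 CPM in mice 6 to 10 (log2 fold change -0.44, standard error 0.203, edgeR adjusted p = 0.417). Stat2, its partner, stood at 50.7, 23.6, 39.3, 66.9 and 34.4 CPM and 46.2, 20.3, 17.2, 20.3 and 36.4 CPM (log2 fold change -0.56, standard error 0.305, edgeR adjusted p = 0.485). In both, the top 2 values were those of mice 4 and 1 and the remaining values overlapped. Irf7, which amplifies the type I response, stood at 36.8, 4.54, 8.60, 46.0 and 19.6 CPM in controls and 35.0, 30.7, 10.7, 23.9 and 18.8 CPM in mutants (log2 fold change 0.22, standard error 0.457, edgeR adjusted p = 0.909). Irf1, a target of both interferon types, stood at 219.7, 214, 162, 409.7 and 172 CPM and 211, 189, 148, 139 and 182 CPM (log2 fold change -0.39, standard error 0.229, edgeR adjusted p = 0.514). Irf7 was low in control mice 2 and 3, and Irf1 was high in mouse 4 alone. Usp18, which closes the receptor to further signals, stood at 14.9, 6.36, 14.7, 29.3 and 13.1 CPM in controls and 28.3, 12.9, 7.16, 13.2 and 11.3 CPM in mutants (log2 fold change 0.013, standard error 0.375, edgeR adjusted p = 0.998), with 1 high mouse in each group, mouse 4 and mouse 6. The direction of Irf7 and of Usp18 turned with the processing.

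**Figure D3:**
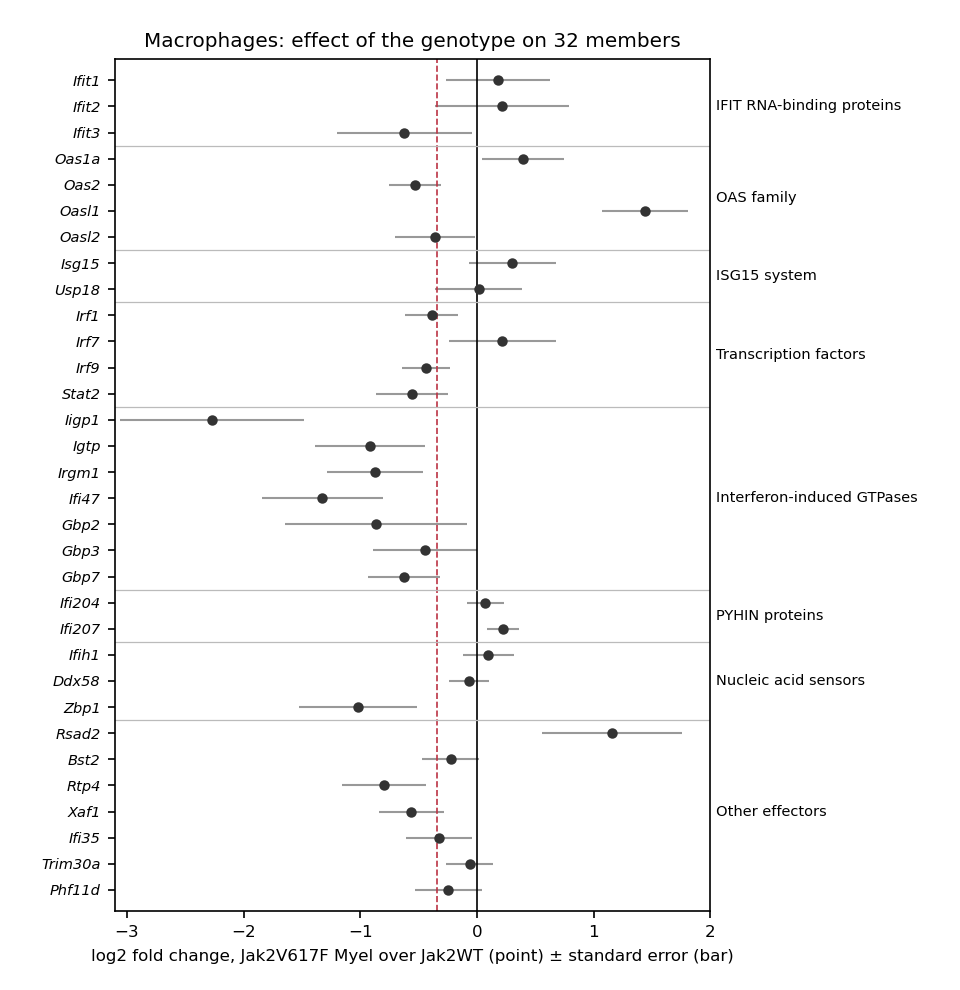
Log2 fold change (horizontal axis, points) with its standard error (bars) between Jak2V617F Myel and Jak2WT macrophages for the 32 members tested, grouped by role. The red dashed line marks the members' median of -0.34, and all 7 interferon-induced GTPases lie left of 0 while Oasl1 lies farthest right at 1.44.

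Because inflammatory macrophages were common only in some mice, the resident ones (Lyve1, Folr2 and Cbr2 among their markers) were compared alone. They numbered 1188 cells, named by the closest marker list with no minimum score. None of the 31 tested members passed the test, in a background of 0.492% of 7923 genes, and DESeq2 called 0. At an unadjusted p under 0.05, 1 member was higher (Ifi207) and 7 were lower, against 6.2% and 6.12% of all genes. No member separated the genotypes without overlap (1.36% of genes higher and 1.17% lower), and the members' median was -0.39 beside -0.0086 over all genes. Iigp1 in resident macrophages stood at 249.9, 34.9, 24.1, 258 and 17.6 CPM in Jak2WT mice 1 to 5 and at 23.2, 21.9, 15.5, 14.0 and 31.7 CPM in mice 6 to 10. Mice 1 and 4 again stood apart, controls 3 and 5 lay among the mutants and control 2 just above them (log2 fold change -2.32, standard error 0.624, edgeR adjusted p = 0.105). Without control mouse 5, the adjusted p was 0.030 with a log2 fold change of -2.64. Ifi207 stood at 745, 839, 810.3, 604 and 693 CPM and 995, 1078, 721, 875 and 848 CPM, with mutant mouse 8 below controls 1, 2 and 3 (log2 fold change 0.28, standard error 0.113, edgeR adjusted p = 0.312).

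Not all of these cells were marked as resident to the same degree. Of the 1188, 494 were in a cluster with a resident marker score of 0.49 whose leading genes included the immediate early genes Egr1, Jun and Atf3, which rise within minutes of a stimulus, and 20 were in a cluster with a score of 0.263 led by genes of proliferation. A comparison of the other 674 cells (25 in mouse 4 to 127 in mouse 10), from clusters with scores of 1.23 and 1.00, was added after the data were seen. In these cells edgeR called 2 of 27 members between genotypes, in a background of 2.75% of 6766 genes. Ifi207 stood at 448, 523, 440.2, 326 and 560.2 CPM in Jak2WT mice 1 to 5 and at 811, 828, 644, 762 and 769.7 CPM in mice 6 to 10. Every mutant lay above every control (log2 fold change 0.75, standard error 0.120, edgeR adjusted p = 0.0025), and the call held with each mouse left out in turn (edgeR adjusted p of 0.0017 to 0.012) and with DESeq2, which also called Isg15. The share of all genes that separated the mice without overlap in these cells was not determined. Iigp1 stood at 283, 25.4, 30.8, 152 and 17.6 CPM in the controls and at 16.0, 29.2, 6.46, 10.0 and 27.1 CPM in the mutants, so that controls 2 and 5 lay among the mutants and control 3 just above them (log2 fold change -2.46, standard error 0.620, edgeR adjusted p = 0.038). Its call was lost with DESeq2 and without any one of mice 1, 4, 6, 7, 8, 9 and 10.

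Ifi207 differed between the clusters of resident macrophages, and their proportions differed between the mice. The cluster led by Retnla and Cd209f made up 20% to 66.7% of the 674 cells in Jak2WT mice and 69.3% to 84.1% in mutants, without overlap. In this cluster Ifi207 stood at 602, 639.9 and 656 CPM in mice 1, 2 and 5, the controls with at least 10 such cells, and at 893, 928, 737, 833 and 902 CPM in mice 6 to 10, again without overlap. In the cluster led by Txnip and Ddit4 it stood at 378, 211, 410.3, 212 and 479.8 CPM in controls and 443, 388, 364, 309 and 371 CPM in mutants, and in the cluster with immediate early genes at 1257, 1110.1, 1116, 1119 and 932 CPM and 1357, 1585, 888, 1173 and 967 CPM. In both of these, the groups overlapped. The part of the cluster proportions in the difference of Ifi207 was not tested beyond this split.

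Over all macrophages, the main fit by severity called members only between aneurysm and Jak2WT, which differ in genotype as well. Against Jak2WT, aneurysm macrophages had Oasl1 higher and Iigp1 and Irgm1 lower among 36 members tested, in a background of 7.36% of 9000 genes called higher and 5.53% called lower, 12.9% in all. A count of 3 in 36 is thus no larger than that share. DESeq2 called 3 members as well. Oasl1 stood at 12.2 and 14.8 CPM in aneurysm mice 7 and 9, above all 5 controls (7.95, 4.54, 2.46, 4.18 and 2.45 CPM), a 3.30-fold difference (log2 fold change 1.72, standard error 0.361, edgeR adjusted p = 0.0061). Iigp1 stood at 7.68 and 7.51 CPM in mice 7 and 9, below all controls, of which the lowest was mouse 5 with 15.5 CPM (log2 fold change -3.61, standard error 0.961, edgeR adjusted p = 0.024). Irgm1, a GTPase that regulates the others and autophagy, stood at 15.6 and 19.2 CPM in mice 7 and 9 against 83.5, 21.8, 29.5, 109 and 33.5 CPM in controls 1 to 5, again without overlap (log2 fold change -1.46, standard error 0.432, edgeR adjusted p = 0.038). Across all 36 members, 1 lay above every control in both aneurysm mice and 5 lay below (Iigp1, Irgm1, Ifi47, Gbp7 and Stat2), beside 10.2% and 15.6% of genes. All 3 calls rested on single mice, and that of Oasl1 on low counts. Without mouse 9, no member was called (Oasl1 at an edgeR adjusted p of 0.073). Without mouse 7 or without control mouse 1, 1 member was called, and without control mouse 2 the number was 7. With 2 aneurysm mice, the lone remaining mouse was then assumed to vary like the other groups. The share of all genes called in each of these fits is not given here.

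The dilation mice overlapped the controls for all 3 of these genes. Their Oasl1 levels in mice 6, 8 and 10 were 13.4, 5.73 and 9.02 CPM (log2 fold change 1.11, standard error 0.400, edgeR adjusted p = 0.483 against Jak2WT), their Iigp1 levels 58.1, 14.3 and 28.2 CPM (log2 fold change -1.58, standard error 0.765, edgeR adjusted p = 0.631) and their Irgm1 levels 41.7, 32.9 and 36.4 CPM (log2 fold change -0.45, standard error 0.389, edgeR adjusted p = 0.846). None of the 36 members was called between dilation and Jak2WT, in a background of 0.0222%, with 1 member (Oasl1) higher at an unadjusted p under 0.05 (3.58% of genes), and none was called by DESeq2. Between aneurysm and dilation 0 members were called as well, by edgeR and by DESeq2, while 10.1% of genes were, and 1 member was lower at an unadjusted p under 0.05 (11.4% of genes). That was Irgm1, with both aneurysm mice below the 3 dilation mice (log2 fold change -1.01, standard error 0.453, edgeR adjusted p = 0.19). For Iigp1 the same contrast gave a log2 fold change of -2.03 with an adjusted p of 0.251.

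The aneurysm mice differed from all others in the make-up of their macrophages. Ccr2+ inflammatory cells were 67.5% of the macrophages in mouse 7 and 52.9% in mouse 9, and 0% to 11% in the other 8 mice. Of these 497 cells, 179 were in a cluster led by Ccr2 with an inflammatory marker score of 0.418. Without that cluster, the shares were 36.2% in mouse 7, 43.6% in mouse 9 and 0% to 5.5% in the others. In resident macrophages alone, 0 of 35 members were called between aneurysm and Jak2WT by either tool, in a background of 0.379%, with 2 higher and 4 lower at an unadjusted p under 0.05 (5.35% and 5.39% of genes). Both aneurysm mice lay above all controls for 1 member (Ifi207) and below them for 1 (Irf9), beside 7.33% and 5.46% of genes. There, Oasl1 stood at 6.03 and 27.6 CPM in mice 7 and 9 against 6.66, 5.13, 2.54, 4.46 and 2.78 CPM in controls 1 to 5, so that mouse 7 fell within the controls (log2 fold change 2.02, standard error 0.526, edgeR adjusted p = 0.144). Iigp1 in these cells stood at 21.9 and 14.0 CPM in mice 7 and 9, so that mouse 7 lay within the controls and mouse 9 below them (log2 fold change -2.65, standard error 0.919, edgeR adjusted p = 0.286). Irgm1 stood at 19.6 and 32.6 CPM, and mouse 9 overlapped the controls (log2 fold change -1.07, standard error 0.456, edgeR adjusted p = 0.402). Between dilation and Jak2WT and between aneurysm and dilation, 0 resident members were called by either tool (backgrounds of 0.0459% and 0.0115%), and 1 member in each was lower at an unadjusted p under 0.05 (4.45% and 1.86% of genes). In the 674 resident cells of higher score, 3 of 32 members were called between aneurysm and Jak2WT, all higher (Ifi207, Isg15 and Rsad2, in a background of 1.95%), 1 between dilation and Jak2WT (Ifi207 higher, 0.504%) and 0 between aneurysm and dilation (0.0129%). Isg15 stood there at 81.4 and 78.9 CPM in mice 7 and 9 against 36.9, 18.5, 24.6, 72.0 and 35.1 CPM in controls (log2 fold change 1.20, standard error 0.283, edgeR adjusted p = 0.035). Rsad2 stood at 3.64 and 34.4 CPM against 1.76, 2.31, 0, 3.79 and 1.46 CPM, so that mouse 7 fell within the controls (log2 fold change 3.50, standard error 0.830, edgeR adjusted p = 0.036). The control levels of Rsad2 lay near the floor of counting, and its fold change leaned on mouse 9. With each mouse left out, the number called against Jak2WT ran from 0 (without mouse 9) to 6 (without mouse 2) in aneurysm, where mouse 1, 3, 5 or 10 left out gave 1 and mouse 7 left out gave 2 (Oasl1 and Rsad2), and the call in dilation was lost without any one of mice 1, 3, 6, 9 and 10. The share of all genes called in these fits with a mouse left out is not given here. In the inflammatory macrophages of mice 7 and 9, Iigp1 was at 1.67 and 3.71 CPM and Irgm1 at 14.0 and 10.8 CPM. The part that the cell mixture has in the differences over all macrophages was not tested beyond this split.

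**Figure D4:**
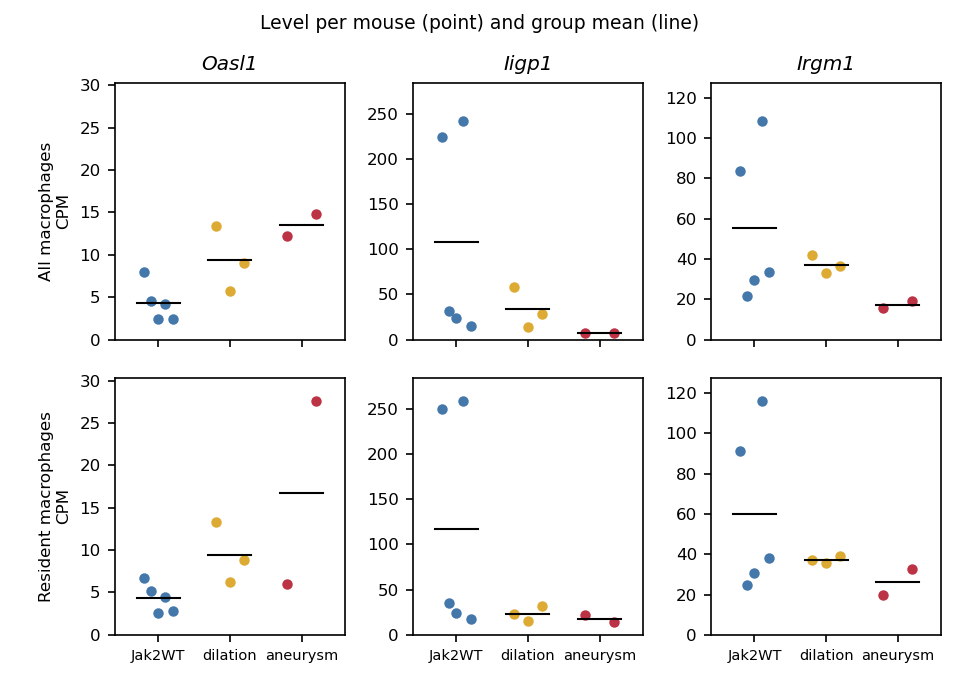
CPM of Oasl1, Iigp1 and Irgm1 (columns of panels) in all macrophages (top) and resident macrophages (bottom) of each mouse (points), with group means (lines). In the top row both aneurysm mice lie above every Jak2WT mouse for Oasl1 and below every one for Iigp1 and Irgm1, and in the bottom row the groups overlap for all 3 genes.

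In type 2 conventional dendritic cells, some of the abundant members had higher values in the mutants. In the 9 mice with at least 10 of these cells, 13 members were tested and none was called by edgeR, in a background of 0.0911% of 4389 genes, while DESeq2 called Isg15 and Ifi207, and 3 members had an unadjusted p under 0.05, all higher in Jak2V617F Myel (4.47% of genes). Isg15 stood at 56.8, 37.4, 45.6 and 134 CPM in Jak2WT mice 1, 2, 4 and 5 and at 208, 179, 288, 385 and 216 CPM in mice 6 to 10. Every mutant lay above every control (log2 fold change 1.81, standard error 0.357, edgeR adjusted p = 0.115, DESeq2 adjusted p = 0.0010). Ifi207 stood at 122, 34.0, 11.4 and 52.1 CPM in these controls and at 233, 175, 138, 203 and 131 CPM in the mutants, also without overlap (log2 fold change 1.59, standard error 0.389, edgeR adjusted p = 0.202, DESeq2 adjusted p = 0.023). The controls gave 11 to 21 cDC2 and 175273 to 294446 UMIs per mouse, and the mutants 27 to 108 cDC2 and 403563 to 1824613 UMIs. Low control levels thus rest on few counts, and the part of depth in the separation was not tested. Bst2 stood at 101, 64.5, 62.8 and 115 CPM in controls and 409, 147, 97.1, 361 and 182 CPM in mutants, of which mouse 8 lay below controls 1 and 5 (log2 fold change 1.41, standard error 0.433, edgeR adjusted p = 0.332). A pair of 13 members without overlap compares with 2.26% of all genes higher in every mutant. The 7 macrophage markers also had higher values in the mutants. None of them was at 0 in this class, and their summed level in cDC2 was 878 to 2155 CPM in the same 4 Jak2WT mice and 2436 to 5220.3 CPM in Jak2V617F Myel, likewise without overlap. Among the mutants, mouse 8 had the highest such sum but the lowest Bst2. The 5 B cell markers, also all present, summed to 34.0 to 78.1 CPM in these Jak2WT mice and 87.7 to 152 CPM in Jak2V617F Myel. The 4 markers of plasmacytoid dendritic cells, a cell type rich in Bst2, were present as well. They summed to 4.06, 0, 5.71 and 0 CPM in controls 1, 2, 4 and 5 and to 414, 16.4, 3.24, 101 and 77.9 CPM in mice 6 to 10, which were in the same order for Bst2. The T cell, ILC2 and neutrophil marker lists in cDC2 overlapped between the genotypes. Over the macrophages of the whole pool, Ifi207 was 772 CPM, Bst2 255 CPM and Isg15 66.4 CPM. The part of transcripts of other cell types in the cDC2 values was not tested.

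The difference between the genotype effects in macrophages and in cDC2 was tested with the mouse as a block. None of 34 members was called, in a background of 0.0712%, although 11 had an unadjusted p under 0.05 (7.18% of genes), all with the lower effect in macrophages (smallest edgeR adjusted p = 0.271). In cDC2 alone only 13 members were abundant enough to test, so most of the 34 differences rest on low cDC2 counts. For Irf7 the difference was -4.27 with a standard error of 1.65. Against T cells, 0 of 30 members were called and 4 had an unadjusted p under 0.05 (backgrounds of 0.054% and 7.75%). Against B cells the numbers were 0 and 4 of 32 (0.0118% and 5.11%). Within lymphocytes themselves few members were abundant enough to test. In T cells 9 members were tested, in B cells 4 and in ILC2 2, with 0 called by either tool, 0 at an unadjusted p under 0.05 (7.3%, 4.33% and 6.2% of genes) and backgrounds of 0% in each type.

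Over the mice together, the members were more concentrated than most other genes in a small share of the macrophages, though most member UMIs lay outside it. Each macrophage was thinned to 2000 UMIs, and the 10% of cells in each mouse with the most UMIs of the other members were taken, so that no gene counted toward its own ranking. Over 1709 macrophages, the median member had 28.9% of its UMIs in these cells. The median of 7812 other genes was 9.39%, and their 95th and 99th percentiles were 15.6% and 20.5%. Of 32 members with at least 30 UMIs, 31 lay above the 95th percentile and 27 above the 99th. Rsad2 and the IFIT genes abundant enough to be ranked led the list. Ifit2 had 85.4% of its UMIs in the top cells, Rsad2 75%, Ifit3 54.9%, Ifit1 44.4% and Usp18 44.2%. At the other end, Ifi207 had 14.5%, Irf1 15.6%, Irf9 16.7%, Bst2 17.0% and Gbp7 19.0%, nearer to the other genes. Ifit2, Rsad2, Ifit3, Ifit1 and Usp18 rest on 41 to 54 thinned UMIs each. The share of each gene was taken over all mice together, so it is not shown mouse by mouse. With cells ranked by all members, the top 10% held 23.3% (mouse 8) to 37.0% (mouse 6) of a mouse's member UMIs.

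**Figure D5:**
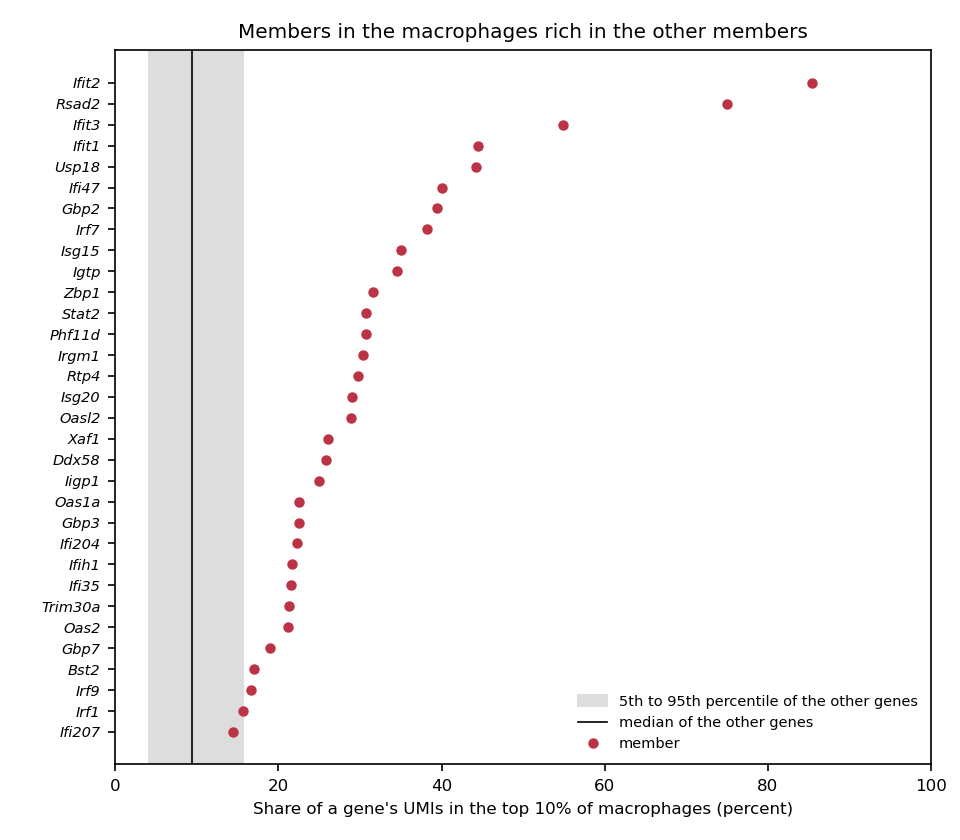
Share of the UMIs of each member (points, horizontal axis in percent) that lay in the 10% of macrophages of each mouse richest in the other members, after thinning to 2000 UMIs. The grey band spans the 5th to 95th percentile of 7812 other genes around their median of 9.39%, and only Ifi207 (14.5%) falls inside it.

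Few macrophages were strongly positive. At 2000 UMIs, 19 of 1709 cells (1.11%) held 20 or more member UMIs, with 5 in mouse 6, 3 each in mice 4 and 10, 2 each in mice 1 and 9, 1 each in mice 2, 3, 7 and 8 and 0 in mouse 5. As a share of macrophages, mouse 4 (6.82%) and mouse 6 (4.00%) were the highest, and the range of the other mice was 0% to 2.04%. The number depends on the cut of 20 UMIs. With the members kept in the clustering, 58 macrophages formed a cluster led by Ifit3, Rsad2, Ifit2, Irf7 and Isg15. The median macrophage of mice 1 and 4 held 5 member UMIs, while that of every other mouse held 3 to 4. Of resident macrophages, 11% were among the top cells, against 7.51% of Ccr2+ inflammatory macrophages and 3.45% of the 29 monocytes. The single clusters did not follow these names. Among the resident ones, the share was 15.2% in the cluster with immediate early genes, 9.40% in that led by Retnla and Cd209f, 5.43% in that led by Txnip and Ddit4 and 15% in the 20 proliferating cells. Among the inflammatory ones, it was 3.79% in the cluster led by Spp1 and Mmp12 and 14.2% in that led by Ccr2. These shares count Ifi207, which made up 34.2% of the member UMIs in macrophages. Over the mice, Ifi207 stood at 888 to 1585 CPM in the cluster with immediate early genes. In that led by Txnip and Ddit4, it stood at 211 to 479.8 CPM. The part of Ifi207 in the order of the clusters was not tested. Other genes with shares above 30% included the PYHIN relatives Ifi206 (50.0%), Ifi213 (41.9%) and Ifi209 (39.6%) and the GTPase Gbp5 (38.2%), which the ranking had not used. Without the top cells, 0 members were called between genotypes and the members' median was -0.42.

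No surface antibody passed the test between genotypes in macrophages. CD169 (Siglec1), a sialic acid receptor, averaged 4.98 ± 1.05 antibody counts per macrophage in Jak2WT (SD, n = 5) and 6.16 ± 2.16 in Jak2V617F Myel (SD, n = 5), a normalised log2 fold change of -0.095. For CD64, an Fc receptor, the log2 fold change was -0.18, and 0 of 73 antibodies were called by edgeR (adjusted over the 73). Isotype controls, antibodies without a target in these cells, also had higher means per macrophage in the mutants. The hamster control averaged 0.271 counts in Jak2WT and 0.519 in Jak2V617F Myel, Rat IgG1 0.259 and 0.396, and Rat IgG2b 0.0471 and 0.118. Between the top cells and the remaining macrophages of the same mouse, CD64 was higher in 7 of 9 mice (mean log2 ratio 0.203, two-sided exact permutation test p = 0.137, adjusted p = 0.342) and CD169 in 4 of 9 mice (mean log2 ratio 0.157, two-sided exact permutation test p = 0.383, adjusted p = 0.638). The smallest p that 9 mice allow is 0.0039.

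Interferons themselves were rarely counted. Of 21 ligand genes, 4 had any UMI in the 4871 cells. Ifng gave 239 UMIs in 83 cells, of which 103 were in T cells and 97 in NK cells and 2 in macrophages. Ifnb1 gave 129 UMIs in 50 cells, of which 78 were in cDC2 and 42 in macrophages, and mouse 7 alone held 30 of the 42. All interferon alpha genes were at 0 of 4871 cells, which allows a share of up to 0.0616% of cells with a UMI (3 counts, counting error only). Ifnar1 stood at 69.6, 75.4, 94.6, 79.4 and 95.7 CPM in the macrophages of Jak2WT mice and at 61.8, 86.3, 75.2, 94.1 and 61.2 CPM in those of mice 6 to 10 (log2 fold change -0.081, standard error 0.157, edgeR adjusted p = 0.899). Ifnar2 gave a log2 fold change of 0.11 between the genotypes (edgeR adjusted p = 0.783) and Jak2 one of 0.029 (edgeR adjusted p = 0.986).

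The other genes of the pathway were read from the same fits. Between genotypes, 0 of 96 such genes were called in macrophages and 0 of 93 in resident macrophages, by edgeR. Between aneurysm and Jak2WT macrophages, 14 of 106 were called, 8 higher and 6 lower, beside the 12.9% of all genes. Of the inhibitors, 4 of 9 were higher, beside 7.36% of all genes called higher, while 0 of 8 were called in resident macrophages. The 4 were the phosphatases Ptpn1 (log2 fold change 0.63, edgeR adjusted p = 0.0051) and Ptpn2 (0.69, adjusted p = 0.026), the ubiquitin editor Tnfaip3 (0.79, adjusted p = 0.0063) and Socs3 (0.62, adjusted p = 0.032). The type II receptor chain Ifngr2 (0.79, adjusted p = 0.0014) and the adaptor Myd88 (0.70, adjusted p = 0.026) were higher as well. Among 70 further interferon-stimulated genes, Slfn2 and Trim25 were higher, and Gm4951, Ddx60, Trim21, Siglec1, Dtx3l and Irgm2 were lower. Slfn2 stood at 1016 and 927 CPM in aneurysm mice 7 and 9 against 323, 454, 458, 589.5 and 454 CPM in controls (log2 fold change 1.18, standard error 0.171, edgeR adjusted p = 0.00051). Gm4951, a GTPase related to Iigp1, stood at 6.78 and 8.83 CPM against 105, 21.8, 51.6, 85.7 and 38.5 CPM (log2 fold change -2.79, standard error 0.454, edgeR adjusted p = 0.0012). For both genes, the aneurysm mice lay outside the range of the controls. Between aneurysm and dilation, Slfn2, Ifnar1 and Ifngr2 were higher and Pias1, Ddx60 and Gm4951 lower, 6 of 106 in all, beside 10.1% of genes. In resident macrophages, 0 of 102 were called in each of the 3 severity comparisons.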

How the data were processed

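Deposited UMI counts per gene, surface antibody and hashtag of 1 pooled CITE-seq run were used (32285 genes, 75 antibodies of which 73 had counts, 10 hashtags and 8471 barcodes). Per the file headers and the study's methods, the authors aligned reads to mm10 with Cell Ranger 6.0.2, and the submitters' processing notes name Seurat 3.0.0. The deposited table names no cell types, so these were rebuilt. Cells were assigned to mice with HTODemux (Seurat 5.3.0, R 4.3.3, quantile 0.99), giving 5857 singlets, 2265 doublets and 349 cells without a hashtag. Singlets with over 10% mitochondrial UMIs (986) were removed. The other 4871 were clustered on 2000 variable genes and 20 principal components at a resolution of 0.3 (macrophages 0.8), without the members or other interferon-stimulated genes, and clusters of all cells were named from marker lists (score of at least 0.5, at least 3 markers). Macrophage subsets were named by the closest list, with no minimum score, and a comparison of the resident clusters with a score of at least 0.5 was added after the data were seen. Of these cells, 405 from low-RNA or mixed macrophage clusters and 37 possible doublets were left out.

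Counts were summed per mouse and cell type (at least 10 cells). Groups were compared with edgeR 4.0.16 (quasi-likelihood F-test, TMM factors, filterByExpr, Benjamini-Hochberg adjustment over all genes tested, threshold 0.05), and with DESeq2 1.42.0 as an alternative. Fold changes are on the log2 scale, and standard errors were derived from the F statistic. Severity was tested in 1 fit of 3 groups. Groups come from the hashtag key in the labels, mice are the replicates, and the labels state no batch. CPM values here were computed from the deposited counts and are not divided by transcript length. For single cells, counts were thinned to 2000 UMIs. Intervals and floors cover counting error only. Alternatives were other size factors, no filter, DESeq2, each mouse left out, another demultiplexing (MULTIseqDemux), a 5% mitochondrial limit, a resolution of 0.5, members kept in the clustering, low-RNA macrophages kept and the top 10% of cells left out. On simulated counts of 8136 genes, the macrophage genotype test recovered 77% of 2-fold and 95% of 4-fold changes with 11 false calls. The changed genes were drawn at random and changed together, and the share that would be recovered among the members was not tested.

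Members and lists were chosen with earlier results of these data known. Named genes are members called in a comparison, the regulators Irf1, Irf7, Irf9, Stat2 and Usp18, the 5 highest and 5 lowest members in macrophages, the 5 most and 5 least concentrated in the top cells, called pathway genes (up to 10 by adjusted p) and Jak2, Ifnar1, Ifnar2, Ifnb1 and Ifng. Other genes were named after their values were seen. A further gene of this rule is not reported here.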

Additional observations from a re-analysis of the deposited data

Results flagged for a closer look

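Levels and sums of the named members in macrophages were screened for a single mouse standing apart within a genotype of 5 mice. The gap of the extreme mouse to its neighbour was divided by the range of the group and compared with Dixon's limit of 0.71. Of 54 groups tested, 3 passed, and chance flags about 1 in 20 groups, which here comes to 2.7.

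In the macrophages of Jak2WT mice, Irf1 stood at 409.7 CPM in mouse 4, with a gap ratio of 0.768. Among Jak2V617F Myel mice, Usp18 stood at 28.3 CPM in mouse 6 (gap ratio 0.717), and Bst2 stood at 298.5 CPM in mouse 7 (gap ratio 0.886). Mouse 4 had the fewest macrophages (44), and mouse 7 had the largest share of Ccr2+ inflammatory macrophages (67.5%). The part of these features in the values was not tested.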

How the results depend on the processing

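No paired analysis was possible because each hashtag number belongs to 1 mouse and the labels give the genotypes no shared replicate numbers. Of the results that answer a comparison, 100 values under other settings and 129 with 1 mouse left out stayed within their limits, and 15 and 8 moved. Without the filter on low counts, the members called were 4 between genotypes in resident macrophages, 4 in cDC2, 5 between dilation and Jak2WT in macrophages and 5 in resident ones, 15 and 9 between aneurysm and Jak2WT, and 6 and 2 between aneurysm and dilation. The share of all genes called without the filter is not given here, so these counts are no result about the members. The cause was not tested. The 3-group fit called 1 member between genotypes in macrophages, and DESeq2 called 2 in cDC2. With MULTIseqDemux, 1 member (Oasl1) was called between aneurysm and dilation in macrophages and 1 (Oasl1, edgeR adjusted p = 0.011) between aneurysm and Jak2WT in resident macrophages. In the resident clusters with a score of at least 0.5, a choice added after the data were seen, 2 members were called between genotypes, 1 between dilation and Jak2WT and 3 between aneurysm and Jak2WT. With each mouse left out in turn, the count ran from 0 to 7 for aneurysm against Jak2WT in macrophages and from 0 to 1 in resident macrophages, where Oasl1 was called without mouse 7, and from 0 to 1 between genotypes in resident macrophages and in cDC2 (Ifi207 without mouse 1, Isg15 without mouse 5). Iigp1 and Irgm1 lost their aneurysm calls without mouse 1, 7 or 9, and Irgm1 also without mouse 10 and with MULTIseqDemux. With each mouse left out, the number of all genes called between genotypes ran from 10 to 76 in resident macrophages and from 2 to 21 in cDC2. For aneurysm against Jak2WT, the share of all genes called in such fits is not given here. No other setting, apart from the low-count filter, changed a count of calls by more than 1.5 times.

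Members near 0 turned in direction between genotypes, none of them called. In macrophages, Irf7 was -0.38 (log2 scale) without the top 10% of cells and ran from -0.078 (without mouse 2) to 0.53 with each mouse left out. Usp18 was -0.015 with DESeq2 and -0.067 at a resolution of 0.5, and ran from -0.24 (without mouse 6) to 0.26. Ifi204 was -0.0014 without the top cells and ran from -0.017 (without mouse 1) to 0.17, and Trim30a ran from -0.19 to 0.071 (without mouse 4). In resident macrophages, Irf7 was -0.090 with DESeq2, -0.060 with MULTIseqDemux and -0.13 at a resolution of 0.5, and ran from -0.25 (without mouse 2) to 0.38. In the resident clusters with a score of at least 0.5, Irf7 was -0.13 and Irf1 0.078. Usp18 was 0.032 with members kept in the clustering and ran from -0.50 to 0.031 (without mouse 4). Depth limits the 6 members too low to test in macrophages and most members in lymphocytes, where 2 to 9 could be tested.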

Other observations

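Ifnb1, the interferon beta gene, was low in most mice. In macrophages, 30 of its 42 UMIs were in aneurysm mouse 7, which stood at 6.78 CPM, beside 0 to 2.98 CPM in the other 9 mice. In cDC2 it stood at 8.12 CPM, 20.4 CPM, 0 CPM and 14.9 CPM in Jak2WT mice 1, 2, 4 and 5 and at 2.48 CPM, 10.4 CPM, 9.71 CPM, 14.9 CPM and 22.4 CPM in mice 6 to 10, so that the genotypes overlapped. Macrophages of mouse 7 had 1 cell with 20 or more member UMIs after thinning, 0.283% of its macrophages, beside 4.00% in mouse 6, whose macrophages stood at 0.745 CPM of Ifnb1.

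Across single cells of other types, strongly positive cells were rare as well. After thinning to 2000 UMIs, 6 of 106 neutrophils (5.66%) held 20 or more member UMIs, as did 3 of 381 cDC2 (0.787%), 2 of 149 gamma delta T cells (1.34%) and 2 of 533 B cells (0.375%). The highest cell was a cDC2 with 111 member UMIs of 2000, above the highest neutrophil (85) and the highest macrophage (56). No cell of this kind was counted among T cells, NK cells or ILC2.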
